A study of Sus scrofa with 12 samples.

Results

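FOXO1, FOXO3, FBXO32, FBXO21, TRIM55 and MDM2 encode a pair of forkhead transcription factors and 4 proteins of ubiquitin ligases, and they are described here through the N6-methyladenosine (m6A) peaks listed on their mRNAs in pig muscle. The members were all peaks whose listed gene was one of these 6 symbols, which gave 81 of 13487 peaks and 6 of the 2159 genes with a peak in any list. Longissimus dorsi, the long back muscle, came from 5-day-old pigs of the breeds Large White and Ningxiang. The labels name no treatment and no genetic change in either breed. Each breed has 3 immunoprecipitated samples and 3 matching inputs, and 1 deposited peak list per replicate.

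FOXO factors are held in the cytoplasm when insulin or insulin-like growth factor activates the kinase AKT, and enter the nucleus when that signal falls. In muscle they then switch on genes of protein breakdown, among them ubiquitin ligases, which tag proteins for the proteasome. F-box proteins choose the substrates of one class of ligase, the SCF complexes, while TRIM and MDM2 proteins carry a RING domain of their own. m6A is a methyl mark placed on adenosines of mRNA and read by proteins that act on its splicing, translation and decay.

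The 6 lists hold 2034 to 2533 peaks each, and the sequencing depth behind them is unknown. Where no peak is listed, the signal did not reach the authors' threshold, and m6A may still be present. In whole muscle, fewer cells of a type and less mRNA per cell cannot be told apart, and either can change whether a peak is called. Of 15 muscle fibre markers 10 had a peak in any list and 7 in all 6, among them CKM, MYH1, MYH2, MYH4 and DES, while ACTA1 had none although it has a curated transcript. Peaks in all 6 lists were also found on 3 of 5 fibroblast markers (PDGFRA, DCN and LUM), 2 of 5 endothelial markers (PECAM1 and CDH5), 1 of 5 adipocyte markers (FABP4) and 1 of 5 immune markers (CD68). None of the 5 satellite cell, 5 nerve and 3 blood markers had one in all 6. A curated transcript or a peak exists for 12 of 15 fibre, 4 of 5 fibroblast, 3 of 5 endothelial, 5 of 5 adipocyte and 4 of 5 immune markers. It exists for 3 of 5 satellite cell, 3 of 5 nerve and 1 of 3 blood markers. For markers with neither, the lack of a listed peak says little about m6A. DCN, LUM, CDH5 and FABP4 were covered over more exonic bases in every Large White list than in every Ningxiang list, and SOX10, a Schwann cell marker, the other way. The part of other cell types in the values below was not tested.

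Peaks on these genes were present in every Large White list, and in Ningxiang the coverage differed from gene to gene. FOXO1, FOXO3 and MDM2 had a peak in all 6 lists, which 35.7% of all genes with a peak did. FBXO32, FBXO21 and TRIM55 had one in 3 of 3 Large White lists and 2 of 3 Ningxiang lists; 12.7% of all genes had a peak in 5 lists. The Ningxiang list without FBXO32 and without FBXO21 was replicate 1, the shortest of the 6, and the one without TRIM55 was replicate 3. In number of peaks, Large White replicates 1, 2 and 3 held 16, 15 and 12 on the 6 genes together and Ningxiang replicates 8, 16 and 14, so the breeds overlapped.

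The length of exonic sequence that peaks cover on a gene was taken as its value in a list. A peak can cross introns, so only its exonic blocks were counted. FBXO21 was covered over more bases in every Large White list than in any Ningxiang list, which held for 7.78% of all genes, and MDM2 over more in every Ningxiang list, which held for 2.92%. The other 4 genes overlapped between breeds. The mean was higher in Large White for 5 of the 6 genes, against 60.2% of all genes, with a median difference of 149.3 bases for the 6 and 39.7 for all. These medians are not like for like, since a difference in bases can grow with the length covered. All 6 genes had peaks in 5 or 6 lists, as 12.7% and 35.7% of all genes did. No gene of the 2159 passed an adjusted p of 0.05 or an unadjusted p of 0.05, since 3 lists against 3 cannot give an exact permutation p below 0.1.

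**Figure D1:**
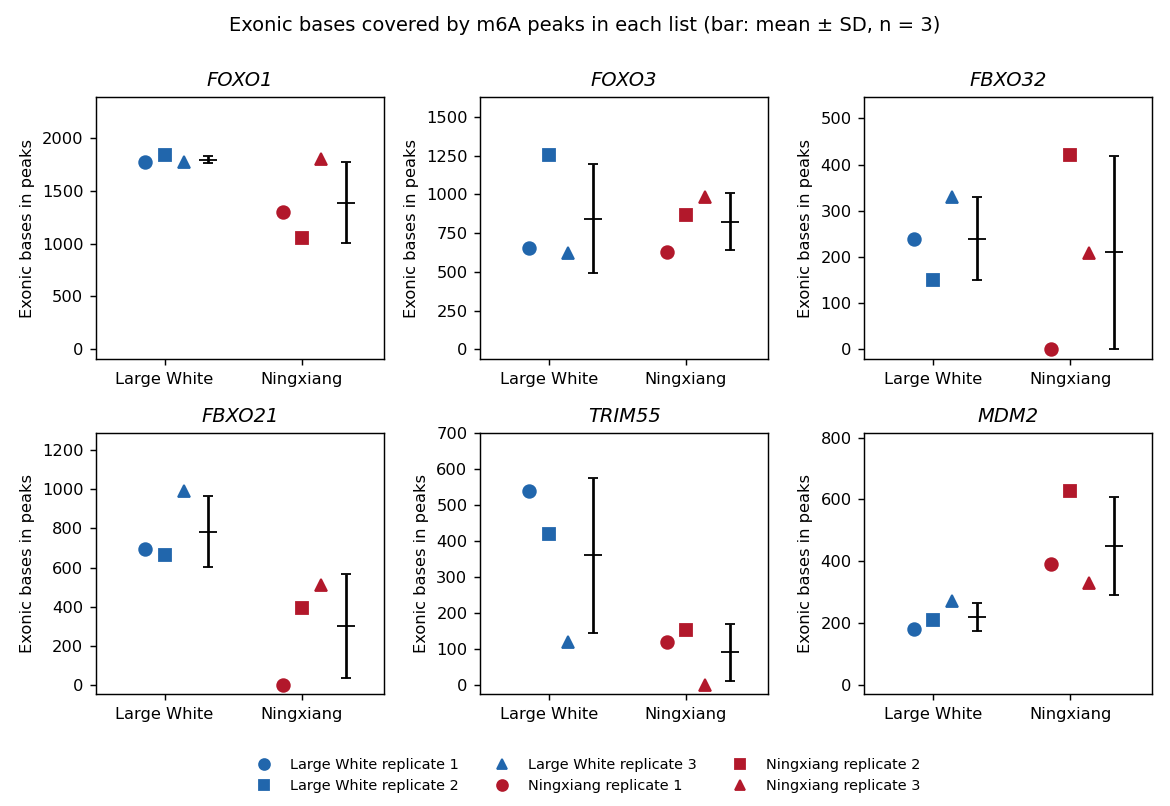
Exonic bases covered by m6A peaks (vertical axes, each from near 0) on the 6 genes in each list, with 1 symbol per replicate and a bar for mean ± SD (n = 3 lists per breed). FBXO21 lies higher in all 3 Large White lists and MDM2 in all 3 Ningxiang lists; FOXO1, FOXO3, FBXO32 and TRIM55 overlap between breeds.

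FOXO1, the forkhead factor best known in liver and muscle for control by insulin, carried the most significant peaks of the set. Its transcript NM_214014 has 3 exons on the minus strand of chromosome 11, 15317124 to 15410473 (susScr11). In Large White, peaks covered 1773, 1833 and 1773 exonic bases in replicates 1, 2 and 3. In Ningxiang they covered 1293, 1054 and 1803. The Large White lists lay close together and Ningxiang replicate 3 reached into their range, so the breeds overlapped: the means were 1793 ± 34.6 and 1383 ± 383 bases (SD, n = 3; exact permutation p = 0.3, adjusted p = 1). Only Ningxiang replicate 3 lay in the Large White range, so without it the breeds could not overlap. Over all genes, 255 were higher in every Large White list without that replicate, against 168 with it. With the stronger 50% of each list the breeds did not overlap on FOXO1, at 1773, 1712 and 1773 against 1293, 723 and 1563 bases. At that setting 102 of all genes were higher in every Large White list. The number of peaks was 4, 4 and 4 in Large White and 3, 5 and 4 in Ningxiang.

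All FOXO1 peaks but 1 exonic block of 42 bases lay in the middle exon or the last exon. That block, in Ningxiang replicate 3, belonged to a peak that crossed the long first intron. The strongest FOXO1 peak by p was on the middle exon in 5 of 6 lists, from 15321484 to 15322204 in Large White replicate 2, for example. Its log10 p was -94.2, -60 and -110 in Large White replicates 1, 2 and 3, at percentiles 94.0, 90.4 and 95.1 of their own lists. In Ningxiang replicate 1 the strongest had -20.1 and in replicate 3 -40.2. In Ningxiang replicate 2 the middle exon held several shorter peaks, and the strongest peak of the gene, with -25.4, lay instead near the 3′ end. Such p-values depend on the depth of a library, so they rank peaks within a list and are not compared between breeds.

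The most reproducible FOXO1 peak lay 510 bases from the annotated 3′ end. It was listed once in every list, between 15317574 and 15317934, with folds of 3.22, 3.11 and 3.82 over input in Large White and 4.29, 3.66 and 2.62 in Ningxiang. Its starts differed between lists by 0, 30 or 60 bases, so these edges are known to within a step of 30 bases, and 211 bases were shared by all 6 lists. The listed class of 15 of the 24 FOXO1 peaks was 5′ untranslated region, although they lie at the 3′ end of this minus-strand gene; class names were therefore not used for FOXO1. In all, 634 of 2342 FOXO1 bases under any peak (27.1%) were covered in every list. Stretches covered in all Large White lists and no Ningxiang list came to 90 bases, in pieces of 30 and 60.

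FOXO3, the family member first tied to muscle atrophy through FBXO32, carried peaks mainly along its last exon. Its transcript NM_001135959 has 2 exons on the plus strand of chromosome 1, 74629695 to 74738437. Peaks covered 655, 1251 and 624 bases in Large White and 625, 865 and 983 in Ningxiang. Neither breed stood apart, with 843 ± 353 and 824 ± 182 bases (SD, n = 3; exact permutation p = 0.9, adjusted p = 1). The sign of this difference turned without Large White replicate 2, the list with the most FOXO3 bases, to -184.8. Most FOXO3 peaks had low folds: the median of its 17 peaks was 1.90, at a median percentile of 15.7 by fold in their lists, and Ningxiang replicate 1 alone exceeded 2.39, with 3.86.

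In every list a FOXO3 peak ended exactly on the last annotated base, 74738437. Such a peak in all 6 lists was found on 41 of 2159 genes, 1.90%. Only the 771 genes with any peak in all 6 lists could have it. RefSeq on Sscrofa11.1 lets the FOXO3 locus run 21886 bases further downstream, to 74760323. Over all lists 35 of 13487 peaks ran past either end of their listed gene. Coverage of FOXO3 beyond the annotated end was not analysed here. The bases shared by all 6 lists were the last 149 and a stretch of 120 from 74737992 to 74738111.

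FBXO32, also called MAFbx or atrogin-1, is the muscle F-box protein that rises in most forms of atrophy. Its transcript NM_001044588 has 9 exons on the plus strand of chromosome 4, 15895875 to 15925929. A single site accounted for it in nearly every list: a peak over exons 7 to 9, or in Large White replicate 2 over exons 8 and 9 alone, close to the 3′ end. It covered 239, 150 and 329 bases in Large White, where that was the only FBXO32 peak. In Ningxiang replicate 3 it covered 209 bases and in replicate 1 no peak was listed. Ningxiang replicate 2 had this peak and another over 4 blocks from exon 1, at 15895964 to 15904023, and so 420 bases in all. The breeds overlapped, with 239 ± 89.5 and 210 ± 210 bases (SD, n = 3; exact permutation p = 0.9, adjusted p = 1).

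Every FBXO32 peak crossed a splice junction, 6 of 6, where 56.5% of all peaks did. Of these 6, 5 were the same site near the 3′ end, listed in 5 lists, so they are not separate sites. The fold of this 3′ site was 3.01, 2.26 and 3.74 in Large White and 2.05 and 2.07 in Ningxiang replicates 2 and 3. Exon 8, with 144 exonic bases at 15924839 to 15924982, was covered whole in 4 of the 5 lists with the peak, and over 120 bases in Large White replicate 2. The list without the peak held the fewest peaks of all, and that peak was weak in Large White replicate 2 too, at percentile 12.5 of its list by p. Read depth at the site was not analysed here, so its absence from 1 list was not tested against depth.

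FBXO21, an F-box protein that FOXO factors induce in wasting muscle, was the 1 gene of the 6 with more covered bases in every Large White list. Its transcript NM_001244497 has 12 exons on the plus strand of chromosome 14, 35313659 to 35354858. Peaks covered 694, 662 and 993 bases in Large White. They covered 0, 391 and 513 bases in Ningxiang. Each Large White list was above each Ningxiang list, with 783 ± 183 against 301.3 ± 268 bases (SD, n = 3; exact permutation p = 0.1, adjusted p = 0.935 over 2159 genes). The peaks numbered 5, 3 and 4 in Large White and 0, 2 and 3 in Ningxiang, which overlapped; none of the 6 genes had more peaks in every Large White list, and 2.50% of all genes did. Large White replicate 2 and Ningxiang replicate 3 tied at 3 peaks, so without either the FBXO21 peak numbers no longer overlapped. Over all genes, such separations in peak number rose from 54 to 132 and 96 without these lists.

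Breeds shared the FBXO21 peaks of the 3′ untranslated region and not those of the internal exons. A site at 35350878 to 35351147 was covered in 3 Large White and 2 Ningxiang lists, with folds of 2.54, 2.83 and 2.30 and of 3.90 and 2.63. A second, at 35354379 to 35354768 and nearer the 3′ end, was covered in the same 5 lists. It had folds of 4.11, 16.5 and 5.73 in Large White and 2.05 and 3.26 in Ningxiang replicates 2 and 3. The 16.5 of Large White replicate 2 was at percentile 99.3 of its list by fold and 25.5 by p. Its peak was also the longest there, with 330 bases.

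Exon 11 of FBXO21 and the start of exon 12 were covered in all Large White lists and in no Ningxiang list. The regions, at 35342411 to 35342568 and 35350718 to 35350818, belong to peaks that join the exons across the intron, so they are 1 site. The peaks there had log10 p of -3.89, -3.65 and -8.44 in Large White replicates 1, 2 and 3 and folds of 1.80, 2.09 and 2.31. In all 110 bases of exon 11 and 41 of exon 12 were covered in every Large White list. Further upstream, exons 2 to 4 and exon 10 had peaks in Large White replicates 1 or 3 and in no Ningxiang list, while exon 1 had one in Ningxiang replicate 3 alone, with a fold of 8.55 and a log10 p of -4.92.

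The internal FBXO21 peaks of Large White ranked below the middle of their lists by p. In replicate 1 they stood at percentiles 14.1, 0.801 and 11.3, in replicate 2 at 9.64 and in replicate 3 at 30.9 and 39.5. When every list was shortened to 2034 peaks by p, Large White replicate 1 lost all 5 of its FBXO21 peaks, and the breeds overlapped at 0, 662 and 842 bases in Large White against 0, 270 and 513. They also overlapped with an adjusted p of 0.001 or lower, at 332, 511 and 993 against 0, 270 and 513. With the stronger 50% of each list the sign of the difference turned, to -19.7 bases.

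TRIM55, also called MuRF2, is a RING ligase of striated muscle that binds the sarcomere and microtubules. Its transcript NM_001244690 has 10 exons on the minus strand of chromosome 4, 68487875 to 68530889. Peaks covered 539, 419 and 120 bases in Large White. In Ningxiang they covered 120, 151 and 0. The ranges met at 120 bases, so the breeds overlapped, with 359 ± 216 and 90.3 ± 79.8 bases (SD, n = 3; exact permutation p = 0.3, adjusted p = 1). Large White replicate 3 made this tie, so without it the breeds no longer overlapped, in bases or in number of peaks. Over all genes, 257 were higher in bases in every Large White list without that replicate, against 168 with it.

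In the last exon of TRIM55, exon 10 from the 5′ end, all Large White lists had a peak and no Ningxiang list did. RefSeq extends the locus 626 bases past the annotated end, and coverage there was not analysed here. The region runs from 68487935 to 68488203 and starts 60 bases from the annotated end. It held 209, 269 and 120 bases in Large White replicates 1, 2 and 3, and the 120 bases nearest the end were common to all of them. The folds were 2.17, 1.63 and 1.89, at percentile 32.2 or lower of their lists, and the log10 p values -10.5, -5.62 and -6.25. Elsewhere on TRIM55 the breeds met: a peak over exons 8 and 9 was listed in Large White replicates 1 and 2 and Ningxiang replicate 1, and one over exons 5 to 7 in Large White replicate 1 and Ningxiang replicate 2. The last-exon region was also Large White only at equal list length and with an adjusted p of 0.001 or lower, but no longer with the stronger 50% of each list. It was also lost when a list had to cover 50% of a region, since Large White replicate 3 covers 120 of its 269 bases.

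Over all genes, 1.78% of 9348 exonic regions were covered in 3 Large White and 0 Ningxiang lists, and 0.685% the other way. The 6 genes had 34 regions, with 3 of the first kind and 0 of the second. Of those 3, the 2 on FBXO21 are blocks of the same peaks and so 1 site. When a list had to cover 50% of a region, those of the first kind were exon 11 of FBXO21 and a FOXO1 region at 15319913 to 15320585, covered over 434, 643 and 404 bases in Large White and 44, 210 and 284 in Ningxiang. At the level of genes, FBXO21 and TRIM55 were 2 of 6, where 88 of 1580 genes with a peak in both breeds, 5.57%, held such a Large White region. Only a gene with a peak in every Large White list could hold one. All 6 members had that, but it was not required of the 1580, so the shares are not like for like. Regions covered in all 6 lists numbered 5, of which 4 were on FOXO1 and 1 on FOXO3, against 15.1% of all regions. By bases, 12.5% of the sequence under any peak of the 6 genes was covered in every list, close to 12.9% over all genes.

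**Figure D2:**
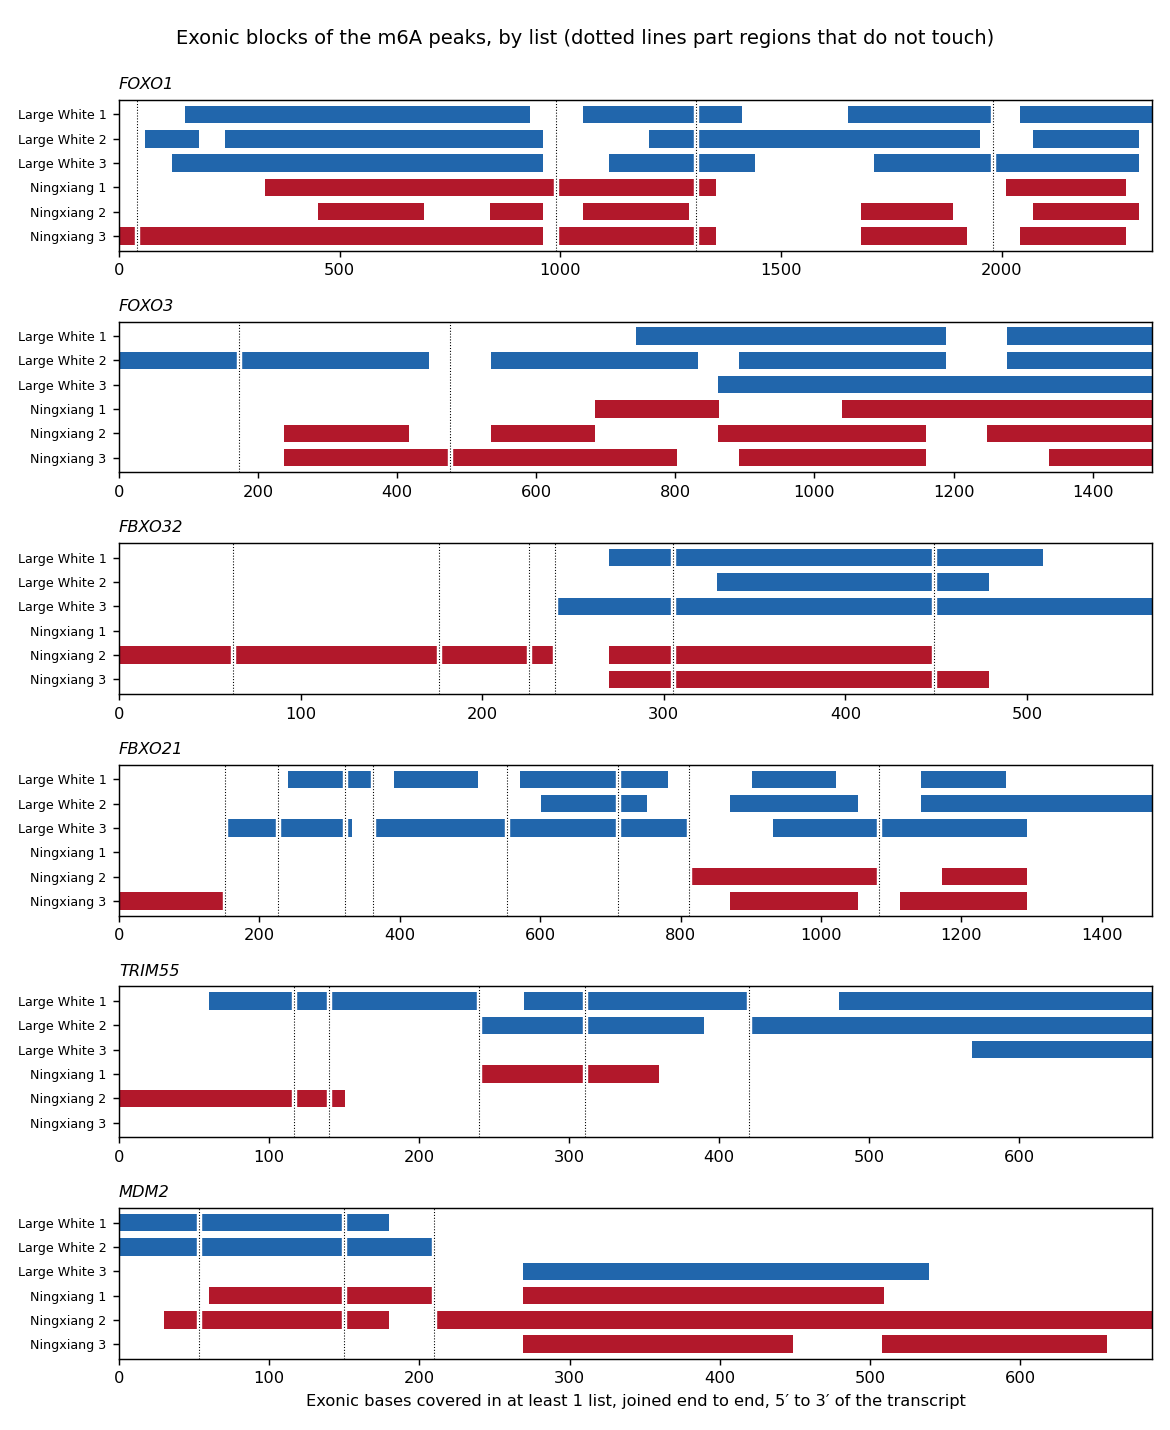
Exonic blocks of every peak on the 6 genes, 1 row per list. The horizontal axis counts exonic bases covered in at least 1 list, joined end to end from 5′ to 3′, and dotted lines part regions that do not touch. Sites near the 3′ ends of FOXO1, FOXO3 and FBXO21 recur across breeds, while the right end of TRIM55 and the middle of FBXO21 are filled in Large White rows only.

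MDM2, a RING ligase that can ubiquitinate FOXO proteins, was the 1 gene with more coverage in Ningxiang. Its transcript NM_001105303 has 11 exons on the plus strand of chromosome 5, 33105718 to 33135592. Peaks covered 180, 210 and 270 bases in Large White. They covered 390, 628 and 330 bases in Ningxiang. Every Ningxiang list was above every Large White list, with 449.3 ± 158 against 220.0 ± 45.8 bases (SD, n = 3; exact permutation p = 0.1, adjusted p = 0.935 over 2159 genes).

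The number of MDM2 peaks did not overlap either: 1 in each Large White list and 2 in each Ningxiang list, a separation that 1.34% of all genes showed (exact permutation p = 0.1, adjusted p = 1). The peaks fell at 2 sites. One crossed exons 6 to 8 and was listed in Large White replicates 1 and 2 and Ningxiang replicates 1 and 2, in Ningxiang replicate 1 over exons 7 and 8 alone. The other lay in exon 11, the last, and was listed in Large White replicate 3 and all Ningxiang replicates. A Large White list thus had 1 site or the other, and Ningxiang replicates 1 and 2 had both; the second peak of Ningxiang replicate 3 was a further one in exon 11.

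Folds at the exon 11 site of MDM2 were 2.31 in Large White replicate 3 and 5.08 and 2.63 in Ningxiang replicates 1 and 2, and the 2 peaks of Ningxiang replicate 3 there had 1.82 and 2.06. The 5.08 belonged to the strongest MDM2 peak, with a log10 p of -24.7; the other 8 peaks of the gene had -6.81 or weaker. At exons 6 to 8 the folds were 3.02 and 2.98 in Large White and 1.80 and 2.49 in Ningxiang. The MDM2 separation held at equal list length and with an adjusted p of 0.001 or lower. Leaving out any 1 list could not undo it, so that alternative says nothing more about MDM2. With the stronger 50% of each list only Ningxiang replicate 1 kept a peak, and counted over genomic span the breeds overlapped. RefSeq extends the locus 2010 bases past the annotated end.

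The members differed in the height and rank of their peaks. By fold, FOXO1 peaks had a median of 2.99 and FBXO21 peaks 2.54, with list medians over all peaks of 2.42 to 2.60. FBXO32 and MDM2 had medians of 2.33 and 2.49. FOXO3 and TRIM55 lay lower, at 1.90 and 1.78, and no TRIM55 peak rose above percentile 32.2 of its list by fold. By p the order was another: FOXO1 peaks stood at a median percentile of 70.3, FOXO3 at 49.4, TRIM55 at 41.7, FBXO32 at 38.7, MDM2 at 26.3 and FBXO21 at 20.2. Folds and p-values are the authors' own per-peak values and describe peaks within these lists.

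**Figure D3:**
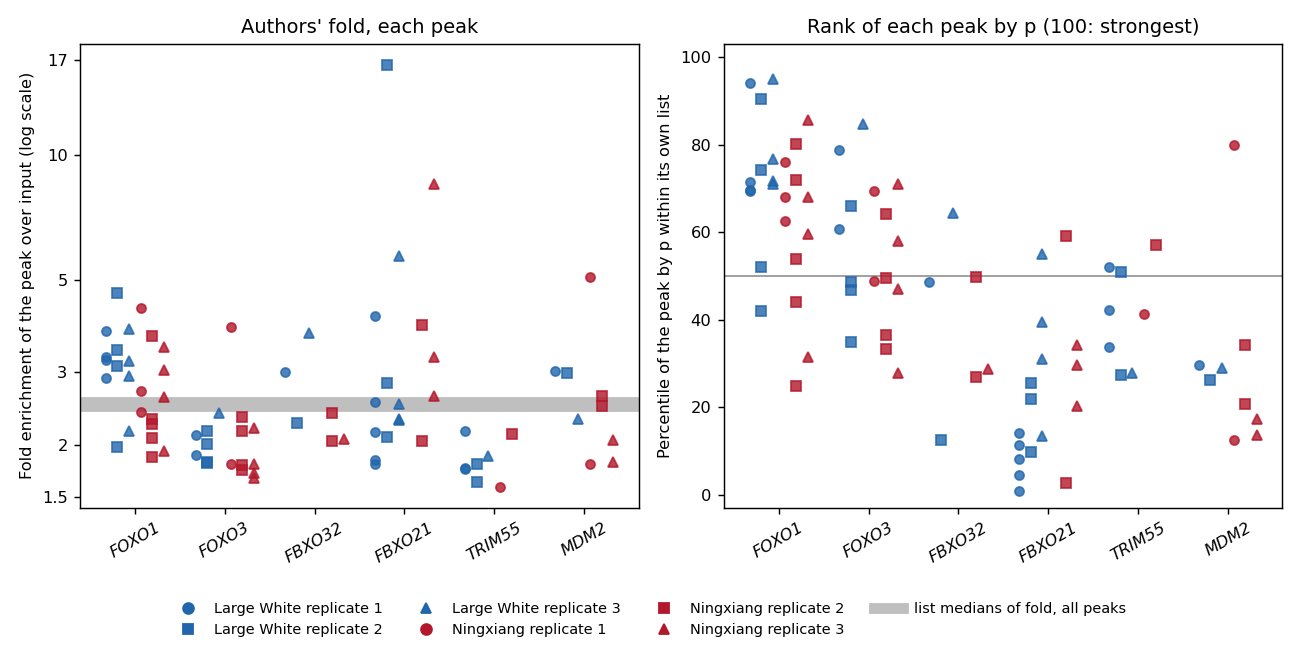
Left, the authors' fold of each of the 81 peaks on a log axis, with the list medians over all peaks as a grey band (2.42 to 2.60). Right, the percentile of each peak by p within its own list, where 100 is the strongest and the line marks 50. A FOXO1 peak ranks highest by p in 5 of 6 lists, an MDM2 peak in Ningxiang replicate 1, and FBXO21 combines the highest fold, 16.5, with low ranks.

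Other genes of the pathway were taken from lists written for this purpose, and most had overlapping breeds. Upstream of FOXO, 11 of 20 insulin and growth factor signalling genes had a peak. The others have neither a curated transcript nor a peak. IGF1R, IRS1, AKT1 and MSTN had a peak in all 6 lists. IRS1, the insulin receptor substrate, was covered over 1529, 1199 and 1378 bases in Large White and 1709, 1650 and 1590 in Ningxiang, and was the only 1 of the 11 without overlap (exact permutation p = 0.1, adjusted p = 0.935). Of all genes, 2.92% were higher in every Ningxiang list and 7.78% in every Large White list. MSTN, the secreted inhibitor of muscle growth, had 713, 980 and 446 against 596, 772 and 832 bases, which overlapped. IGF1R, the receptor upstream of IRS1, had 963, 663 and 1113 against 1054, 1113 and 663 and overlapped too.

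Of 38 symbols listed for muscle and FOXO-linked ligases and partners, 8 have a curated transcript or a peak and 6 had a peak. TRIM63, the ligase MuRF1 that is paired with FBXO32 as a mark of atrophy, has a curated transcript and no peak in any list. TRAF6, a RING ligase of inflammatory signalling, was covered over 681, 621 and 771 bases in Large White and 178, 208 and 208 in Ningxiang, with no overlap (exact permutation p = 0.1, adjusted p = 0.935). Most of it lay in exon 6 of 6 on chromosome 2, where Large White replicates 1 and 2 had a peak over 681 and 621 bases and replicate 3 one over 474. In Ningxiang the peaks there were at 24621680 to 24621857, 24622182 to 24622389 and 24621975 to 24622182, so the 3 lists covered different parts of the exon. USP19, a deubiquitinase, and ZFAND5, a zinc-finger partner of the proteasome, had peaks in all 6 lists and overlapped.

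Of 21 FOXO target genes, 14 have a curated transcript or a peak and 8 had a peak. CDKN1B, BCL6, KLF15 and PPARGC1A had one in all 6 lists, and no target gene had breeds apart. GADD45A, a stress gene, was covered over 149, 267 and 178 bases in Large White and 0, 119 and 296 in Ningxiang. Of the genes that act on MDM2, USP7 and RPL5 had a peak in all 6 lists. USP7, which deubiquitinates MDM2, had 1466, 1706 and 687 bases against 689, 1254 and 540. RPL5, a ribosomal protein that binds MDM2, had 296, 296 and 296 against 207, 296 and 296. Both overlapped. The median difference for the signalling, ligase and target lists, Large White minus Ningxiang, ran from 10.0 to 25.0 bases, against 39.7 over all genes.

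Among all F-box and TRIM genes with a peak, 11 in number, 2 had one in all 6 lists, FBXL4 and FBXO6, against 35.7% of all genes. Large White was above Ningxiang without overlap for FBXO21, FBXO34 and TRIM26, 3 of 11, where 7.78% of all genes were, and Ningxiang above Large White for 0, against 2.92%.

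**Figure D4:**
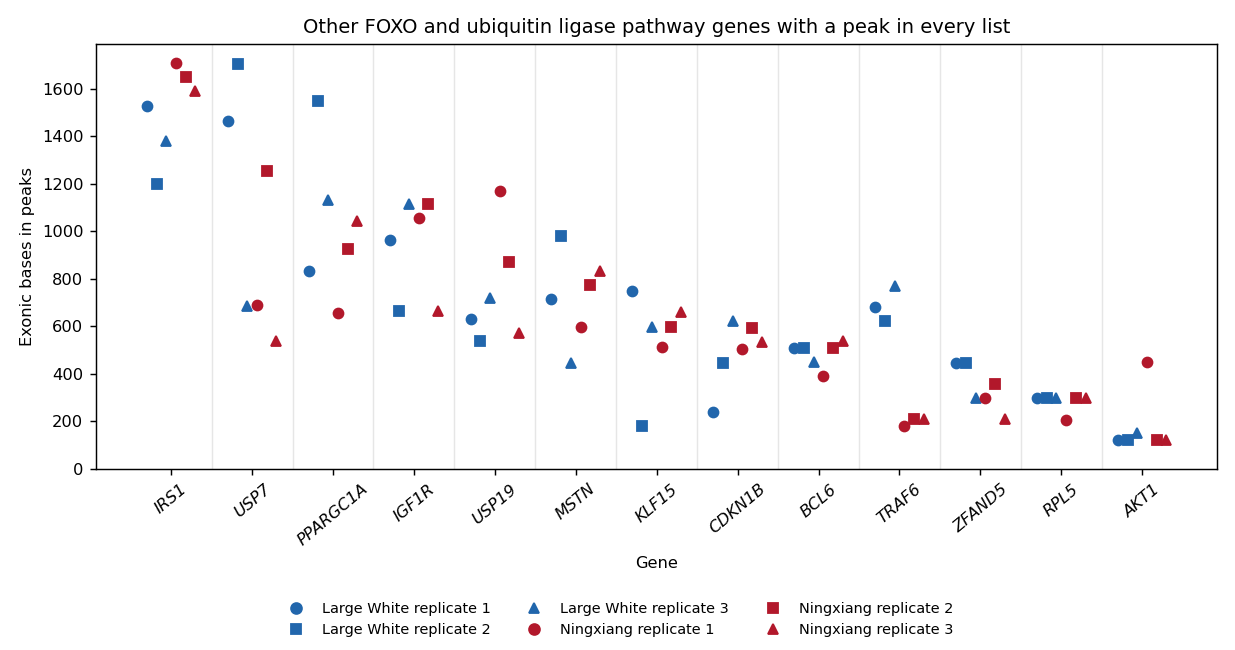
Exonic bases in peaks (vertical axis, from 0) for 13 other pathway genes with a peak in every list, 1 symbol per list. TRAF6 lies higher in the 3 Large White lists and IRS1 in the 3 Ningxiang lists, and the other genes overlap between breeds.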

How the data were processed

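Peaks were called per replicate, and each of the 6 deposited lists was assigned to its immunoprecipitated sample through that sample's description. The submitters' processing notes name the build susScr11 and the tools HOMER, ChIPseeker 1.30.2 and FastQC 0.11.9. Which aligner and which peak caller were used is not stated in those notes, the labels or the headers. Per the file headers, each peak carries a p-value, its log10 and adjusted forms (used as scores) and a fold, a ratio over input computed by the authors. Starts count from 0 and are printed after adding 1. Exon numbers rise along the chromosome and were turned round for minus-strand genes.

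Exonic blocks were joined within a gene and list to give covered bases. Each of 2159 genes was compared between breeds with an exact two-sided permutation test over 3 lists against 3, with Benjamini-Hochberg adjustment over all genes. Blocks merged over lists gave regions; at least 1 base counted as covered. The labels do not say whether replicates came from separate pigs, and the p-values then reflect only sample-to-sample spread, possibly technical. The alternatives were the stronger 50% of peaks, equal list length, a stricter adjusted p, genomic span, a replicate block, other overlaps and leaving out each list. Named genes were the 6 members and, from pathway lists, genes in all 6 lists or without overlap, up to 5 a list; ACTA1, TRIM63, GADD45A and the F-box and TRIM genes were named after their values were seen. The members and lists were chosen with earlier results of these data known. Some genes of these lists are not reported here. No sequence is printed and motif content was not analysed here. Counting was tested on simulated lists. Python 3.11.15, pandas 2.3.3, NumPy 2.4.6, SciPy 1.17.1 and Matplotlib 3.10.9 were used.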

Additional observations from a re-analysis of the deposited data

How the results depend on the processing

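No gene passed an adjusted p of 0.05 under any alternative run, and none could, since the smallest exact permutation p is 0.1 for 3 lists against 3 or 2, and 0.25 for 3 pairs. The directions of FOXO1, TRIM55 and MDM2 in exonic bases held when any 1 list was left out, with differences of 245.0 to 619.5, 179.2 to 388.7 and -289.0 to -140.0 bases, and FBXO21 ranged from 331.0 to 587.5. For MDM2 and FBXO21 the direction could not turn in this way, since their breeds did not overlap with all lists. FOXO3 (-184.8 to 128.7) and FBXO32 (-75.2 to 134.8) took either sign: FOXO3 turned without Large White replicate 2 or Ningxiang replicate 1 (-80.7), and FBXO32 without Large White replicate 3 (-15.2) or Ningxiang replicate 1. With the stronger 50% of each list FBXO21 turned to -19.7, and FOXO1, at 559.7, no longer overlapped between breeds. Over genomic span, FOXO1 turned to -28429.7 and FBXO32 to -2351.0, each because 1 Ningxiang peak crossed long introns. The cause of the other turns was not tested.

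Genes with every Large White list above every Ningxiang list in exonic bases numbered 168, and 63 the other way. The stronger 50% gave 102 and 26. Leaving out 1 list gave 223 to 328 and 89 to 145, where fewer lists make separation easier. For peak number the counts were 54 and 29, with 38 and 10 at the stronger 50% and 39 and 39 at equal list length, and 88 to 132 and 42 to 74 without 1 list. With a replicate block, counting genes whose 3 same-numbered differences share a sign, there were 286 and 124 for bases and 86 of the first kind for peaks. The labels do not say whether same-numbered lists are pairs. Same-numbered lists had correlations of deviations of 0.043, 0.051 and 0.022, and differently numbered lists -0.094 to 0.051. With so few lists, these values cannot decide whether there is pairing. The blocked exact p of no gene can fall below 0.25.

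Regions of the 6 genes covered in Large White only numbered 3; they were 0 with the stronger 50%, 1 at equal list length, 1 with the stricter adjusted p, 2 when a list had to cover 50% of a region, with FOXO1 in place of TRIM55 and 1 FBXO21 region, 2 when it had to cover 50 bases, 3 to 6 without 1 list and 5 when counted as stretches per base, an alternative chosen after seeing the data. Ningxiang-only regions were 0 to 1, with the 1 on MDM2 without Large White replicate 3. Regions covered in every list fell from 5 to 2 when a list had to cover 50% of a region, and were 4 to 9 without 1 list. Members with a peak in every list were 3 to 5 without 1 list, the 5 without Ningxiang replicate 1. With the stronger 50% of each list they were 2. Read depth per list is unknown and limits every statement on an absent peak.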
